A study of Auxenochlorella pyrenoidosa with 12 samples.

Results

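The comparison described here follows Chlorella pyrenoidosa (Auxenochlorella pyrenoidosa), a single-celled green alga, from day 3 to day 6 of exposure to potassium peroxymonosulfate (PMS). It rests on 4 of the 12 RNA libraries of the study, 2 libraries of day 3 and 2 of day 6. All 4 came from cultures that received PMS at 8.49 mg/L, which is 0.5 of the EC50 of the acute test, and no strain or genotype is named in the labels. The design text speaks of at least 3 repeats of each group without tying them to the RNA libraries. The other 8 libraries are 2 of an untreated control, whose day the labels leave ambiguous, and 2 each of exposed days 0, 9 and 12; they set the spread of the test and show where the 2 days lie in the course. The labels place no untreated culture on day 3 or day 6, so exposure time and culture age cannot be told apart. Nothing in the labels says that the 2 libraries of a day were grown separately, and p-values then measure only the spread between these libraries, which may be technical.

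PMS is a strong oxidant used in water treatment. In water it can give rise to sulfate and hydroxyl radicals, which attack lipids, proteins, pigments and nucleic acids. Algae under oxidative stress are known to raise enzymes that remove reactive oxygen species, to adjust the light-harvesting and electron transport proteins of the chloroplast, and to repair or replace damaged proteins. PMS itself breaks down in water, so a culture dosed at the start can meet less oxidant with time. Which of these processes the transcripts below belong to cannot be read from the table, because it lists contigs of a Trinity assembly under assembly names and pairs none of them with a gene or a sequence. RNA was measured in bulk, where fewer cells and less RNA of a kind per cell cannot be told apart.

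Contigs were included when they had at least 1 FPKM (fragments scaled to transcript length and library total) in both libraries of at least one of the days, which kept 15488 of 30814 contigs. Between 98.4% and 99.3% of the total FPKM of the 4 libraries lay in these contigs. Of the 15488, 10176 reached 1 FPKM in both libraries of both days, 4254 did so on day 6 only and 1058 on day 3 only. The single-day contigs had to differ to enter in this way, and they are counted apart below. At the threshold, the value that decided entry was 1.00004 FPKM for the lowest contig inside and 0.999977 FPKM for the highest one outside, with 641 contigs between 1 and 1.1 FPKM and 711 between 0.9 and 1 FPKM. Total FPKM was 585605 and 530114 in the day 3 libraries and 563295 and 552670 in the day 6 libraries, within the range of the whole series, and depth in reads is unknown.

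The transcriptome moved widely between the 2 days, and more contigs rose than fell. Limma on log2(FPKM + 1), with Benjamini-Hochberg adjustment over the 15488 contigs and a threshold of 0.05, called 8832 contigs, 57% of those tested. Of these, 6095 rose (39.4% of those tested) and 2737 fell (17.7%). The median rise was 2.19-fold and the median fall 1.80-fold on log2(FPKM + 1), a scale on which low contigs appear to change less than they do. At least 2-fold, 3625 contigs rose (23.4%) and 1042 fell (6.73%), and at least 8-fold, 235 rose and 45 fell. The number falling at least 2-fold depended on 1 library and on the scaling: it was 2385, against 3369 rising, without day 3 library 2, and 1603 against 3090 with upper-quartile scaling and 1675 against 2656 with quantile normalization. Both day 6 libraries lay above both day 3 libraries in 7925 contigs (51.2%) and below both in 4372 (28.2%), so groups that do not overlap were common here and say little for a single contig.

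**Figure D1:**
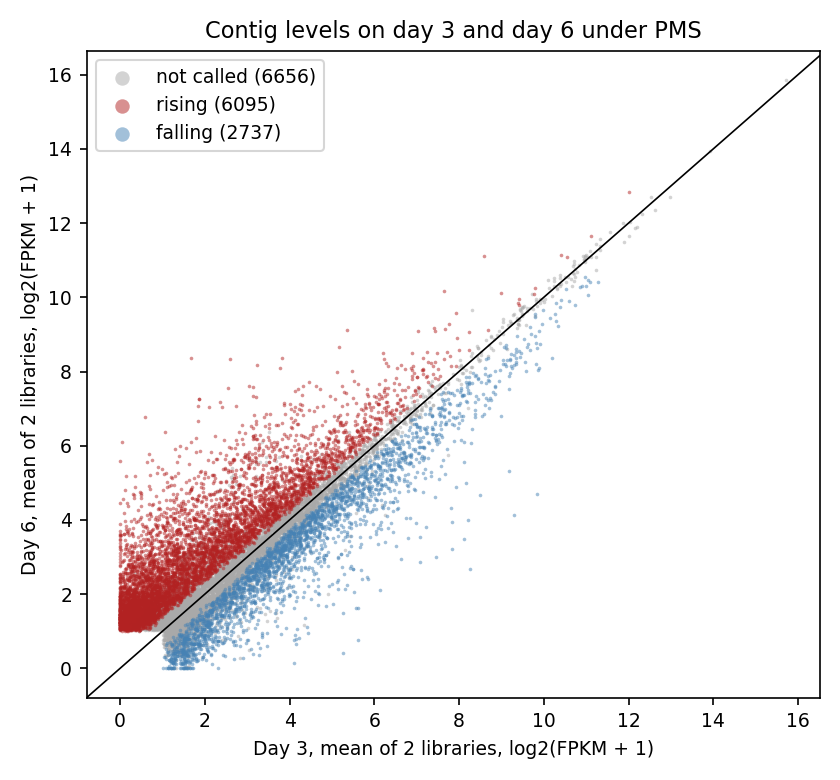
Each point is a contig, with its mean log2(FPKM + 1) over the 2 libraries of day 3 on the horizontal axis and of day 6 on the vertical axis; the line marks equal levels. The 6095 rising contigs (red) crowd at low day 3 levels, the 2737 falling ones (blue) lie along the whole range, and 6656 were not called (grey).

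The excess of rising contigs lay mostly among those below 1 FPKM in a day 3 library. Among the 10176 contigs with at least 1 FPKM in all 4 libraries, 3284 rose and 2263 fell, and the median change was 0.08 on the log2 scale. Of the contigs that entered through day 6 only, 2811 of 4254 were called, and of those that entered through day 3 only, 474 of 1058, a direction that the choice itself fixes. The balance also depended on how libraries were scaled. Rescaling by median ratio, by upper quartile or by quantile normalization shifted the median change of the tested contigs by -0.09, -0.19 and -0.24 on the log2 scale. The calls were then 5597 rising and 3310 falling, 5043 and 3843, and 4509 and 3861, so that rising contigs stayed more frequent over all tested contigs. For the 10176 contigs measured on both days the balance turned, from 2898 rising and 2768 falling with median ratios to 2444 and 3236 with the upper quartile and 2358 and 3108 with quantile normalization.

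The change was seen in each library pair, though the day 3 libraries differed from each other more than the day 6 libraries did. Across the 15488 contigs, which are not independent replicates, the difference of library 1 of day 6 from library 1 of day 3 had a Pearson correlation of 0.82 with that of library 2 from library 2, and 86.1% of contigs had the same sign. With the libraries matched the other way the correlation was 0.67 and the share 82.7%. The differences set against each other share no library. Part of this agreement is built in, since 4254 contigs entered through day 6 only and 1058 through day 3 only. It was not computed for the contigs measured on both days alone. The day 3 libraries were at least 2-fold apart in 1355 contigs (8.75%), with library 1 the higher in 1165 of them, against 392 contigs (2.53%) within day 6. Without day 3 library 1, 6118 contigs rose and 2383 fell. Without day 3 library 2, it was 5388 against 4022, which moved the falling share of the calls from 31.0% to 42.7%; with a single library left on a day the entry rule also admits more contigs.

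Part of the gap within day 3 lay in contigs that were not measured in the control or on day 0. Of the tested contigs, 1337 were listed below 0.01 FPKM in every library of the control and of day 0. Their median was 0.742 FPKM in day 3 library 1 and 0 in library 2, then 2.20 and 1.75 FPKM on day 6. Library 1 of day 3 thus stood between library 2 and day 6 for this set. In this set 38.4% were at least 2-fold higher in day 3 library 1 than in library 2, against 4.61% of the other 14151 contigs. Of the 1337, 875 rose and 34 fell from day 3 to day 6, but only 34 of the 1337 reached 1 FPKM in all 4 libraries, so for most of them the way they entered set the direction. Of those 34, 9 rose and 1 fell, against 3275 and 2262 of the other 10142 contigs measured on both days. Fitted without them, the calls were 5208 rising and 2710 falling.

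The largest single changes were followed in 4 contigs, the 2 rising and the 2 falling ones with the largest log2 change among called contigs whose groups did not overlap and that had at least 0.1 FPKM in each of the 4 libraries. TRINITY_DN19425_c0_g1_i1_2 stood at 1.89 and 2.49 FPKM in the day 3 libraries and at 331 and 321 FPKM in the day 6 libraries. It was at 136 and 143 FPKM in the control and at 143 and 135 FPKM on day 0, and later stood at 386 and 288 FPKM on day 9 and then 220 and 225 FPKM on day 12. This abundant transcript was thus low in the day 3 libraries and in none of the other 10, and both of its day 6 libraries lay above every control and day 0 library. The means of 2.19 ± 0.420 on day 3 and 326 ± 7.11 on day 6 (SD, n = 2) differed 149-fold, and limma put the log2 change at 6.69 (SE 0.14, adjusted p = 1.07e-08).

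TRINITY_DN9629_c0_g1_i1_3 rose from 0.580 and 0.454 FPKM on day 3 to 106 and 110 FPKM on day 6. Its control libraries held 8.53 and 8.01 FPKM and its day 0 libraries 9.86 and 12.5 FPKM. It remained at 136 and 120 FPKM on day 9 and then 85.2 and 90.5 FPKM on day 12, so it was lowest on day 3 and stood in all 6 later libraries above its control and day 0 levels. The mean of 0.517 ± 0.0892 FPKM on day 3 and 108 ± 3.05 FPKM on day 6 (SD, n = 2) differed 209-fold, and the limma log2 change was 6.16 (SE 0.12, adjusted p = 9.10e-09).

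TRINITY_DN941_c0_g1_i2_1 had 289 and 322 FPKM on day 3 and then 5.38 and 5.51 FPKM on day 6. The control libraries held 676 and 644 FPKM and those of day 0 held 474 and 443 FPKM. On day 9 it held 9.44 and 10.1 FPKM and on day 12 24.7 and 24.1 FPKM, all far under the control, day 0 and day 3 libraries. The means of 306 ± 23.5 and 5.44 ± 0.0913 FPKM (SD, n = 2) make day 6 56.2-fold lower, and limma put the log2 change at -5.57 (SE 0.08, adjusted p = 3.34e-09).

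TRINITY_DN449_c0_g1_i90_1 went from 277 and 1424 FPKM on day 3 to 14.3 and 19.3 FPKM on day 6. It held 2008 and 1867 FPKM in the control, 600 and 353 FPKM on day 0, 9.40 and 13.3 FPKM on day 9, and lastly 26.9 and 11.6 FPKM on day 12. The day 3 libraries lay far apart, but both were above every library of days 6, 9 and 12. Its mean of 851 ± 811 FPKM on day 3 against 16.8 ± 3.49 FPKM on day 6 (SD, n = 2) gave a limma log2 change of -5.16 (SE 0.67, adjusted p = 0.000223). The change was -6.34 without day 3 library 1 and -3.98 without library 2, with an adjusted p of 1.69e-05 to 0.0151 over all settings tried.

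**Figure D2:**
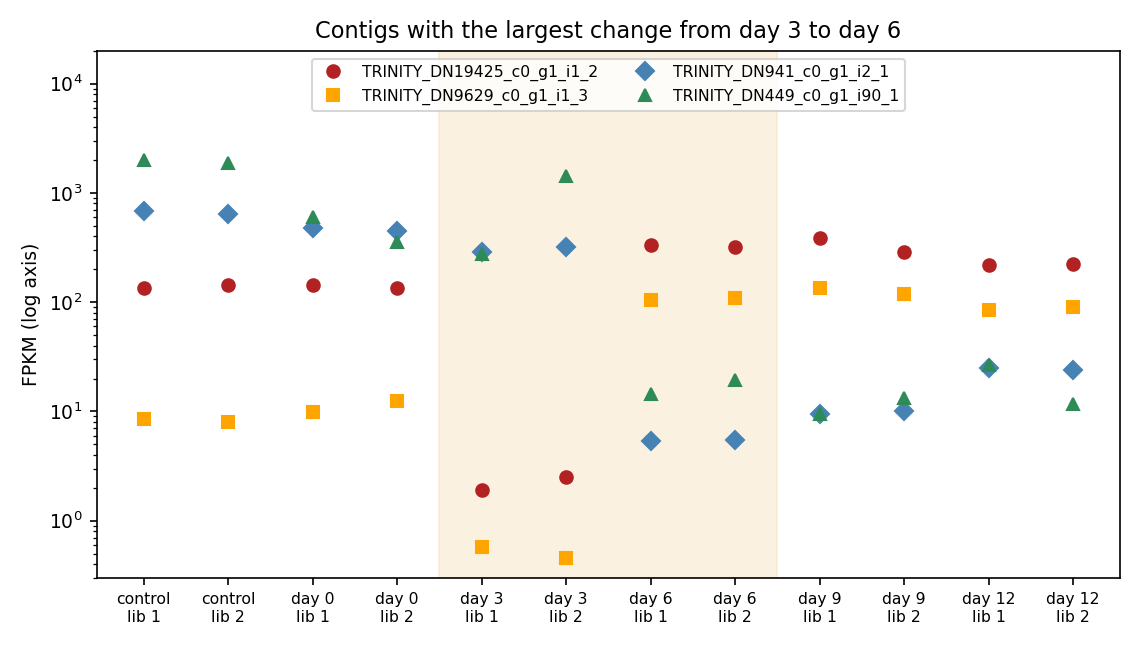
FPKM on a log axis of the 4 contigs in each of the 12 libraries, 1 point per library; the shaded band marks days 3 and 6. The rising contigs (circles and squares) are at their lowest in both day 3 libraries, and the falling ones (diamonds and triangles) are lower in all day 6 to day 12 libraries than in any control, day 0 or day 3 library.

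Few contigs switched fully on or off. Below 0.01 FPKM in both day 3 libraries and at least 1 FPKM in both day 6 libraries were 208 contigs, of which 200 were called. The calls and their direction follow largely from this choice, which uses the same day 3 and day 6 values. Their median on day 6 was 1.84 and 1.62 FPKM, the highest reached 53.0 and 41.8 FPKM, and 4 had at least 10 FPKM in both day 6 libraries. Of the 208, 133 were also below 0.01 FPKM in every control and day 0 library, against 1337 of all 15488 tested contigs. In the opposite direction 30 contigs went from at least 1 FPKM in both day 3 libraries to below 0.01 FPKM in both day 6 libraries, with a median of 1.52 and 1.49 FPKM on day 3. Of the called contigs, 5547 of 8832 had at least 1 FPKM in all 4 libraries, against 10176 of all 15488 tested contigs. Calls were thus slightly less frequent among those 10176, at 54.5% against 57.0% of all tested contigs.

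As deposited, the share of falling calls was higher among more abundant contigs. Contigs were grouped by their level over the 4 libraries, taken as the mean of log2(FPKM + 1) turned back into FPKM. Of 3535 contigs from 2 to 5 FPKM, 37.5% rose and 12.9% fell; of 3461 from 10 to 50 FPKM, 35.6% rose and 26.8% fell; and of 502 from 100 to 1000 FPKM, 22.1% rose and 43.8% fell. Falling contigs were thus the more frequent from 50 FPKM on, where 212 of 549 fell and 188 rose up to 100 FPKM. In the group of 100 to 1000 FPKM falling calls were the more frequent under every scaling, with 189 falling and 158 rising under quantile normalization as the closest, while from 10 to 50 FPKM the balance turned under each rescaling. The order by abundance itself depended in part on the scaling. For contigs measured on both days, falling contigs made up 31.1% of the calls from 2 to 5 FPKM and 66.5% from 100 to 1000 FPKM as deposited. From 2 FPKM on the order held with median ratios, at 39.2% and 72.1%, and with the upper quartile, at 47.5% and 78.2%. Below 2 FPKM the shares were 44.5% and 58.6%, above those from 2 to 5 FPKM. With quantile normalization the order was not kept, and the share was highest at the lowest level. It was 89.5% of the calls below 2 FPKM, 58.3% from 2 to 5 FPKM, 55.8% from 10 to 50 FPKM and 54.5% from 100 to 1000 FPKM. Among the 78 contigs at 1000 FPKM or more, 5 rose and 14 fell, with the others not called.

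**Figure D3:**
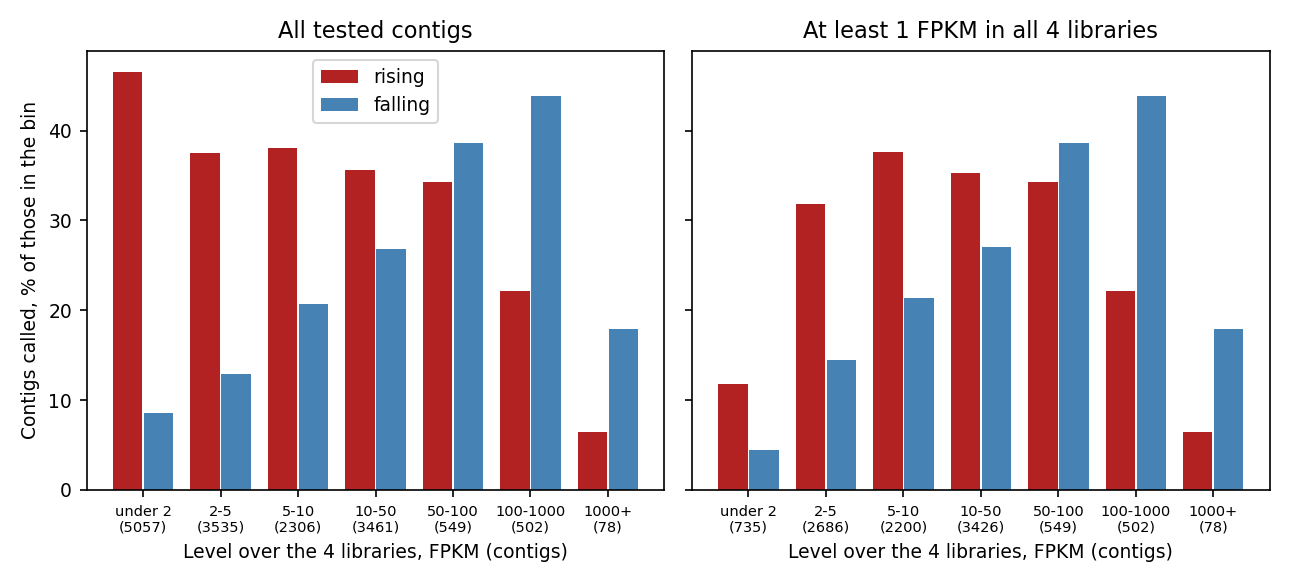
Share of contigs called rising (red) and falling (blue) by level over the 4 libraries, with the number of contigs under each level, for all tested contigs (left) and for those with at least 1 FPKM in all 4 libraries (right). Values are as deposited. In the group of 2 to 5 FPKM 37.5% rose on the left, and in the group of 100 to 1000 FPKM 43.8% fell on both sides.

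The most abundant transcripts largely kept their place. Of the 100 contigs with the highest mean on day 3, 84 were also among the top 100 of day 6, and 66 were not called while 30 fell and 4 rose. A choice by the level of one day favours one direction, and of the top 100 of day 6, 74 were not called while 14 fell and 12 rose. The top 10 shared 8 contigs. The leading contig held 57746 and 50812 FPKM on day 3 and then 57707 and 60512 FPKM on day 6, which is 9.86% and 9.59% and then 10.2% and 10.9% of the total FPKM, and it was not called (limma adjusted p = 0.694). Of the 10 leading contigs of day 6, the third was the exception, with 4441 and 3835 FPKM on day 3 and then 7083 and 7682 FPKM on day 6, by limma a log2 change of 0.84 (SE 0.25, adjusted p = 0.0184); it was singled out after its values were seen. The share of the total held by the 1000 leading contigs of each library was 77.9% and 79.0% on day 3 and 74.1% and 74.7% on day 6, with no overlap between the days, while that of the 100 leading ones was 47.0% and 46.9% on day 3 and 46.3% and 46.8% on day 6.

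Gain and loss of FPKM were nearly equal in sum. Summed over the tested contigs whose mean was higher on day 6, the gain was 100484 FPKM, and the loss over the others was 101678 FPKM. Since FPKM is scaled to the total of a library, this near balance is largely built in. Called contigs carried 79.6% of the gain and 81.4% of the loss. Calls favour large changes, so high shares are partly built in as well. The 100 largest gains made up 35.1% of the gain and the 100 largest losses 43.6% of the loss. Of all FPKM in a library, the rising contigs took 10.7% and 11.5% on day 3 and 25.2% and 25.6% on day 6, and the falling contigs 30.0% and 31.7% and then 15.9% and 16.0%. The sets were chosen by the direction of their change in the same libraries, so the direction of these shares follows from the choice.

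The levels of the called contigs in the other 8 libraries, which entered the test through its spread alone, place the 2 days in the course. The order of day 3 and day 6 itself follows from the choice of the contigs. That choice also favours low day 3 values in the rising set and high ones in the falling set. Of the 6095 rising contigs, 2811 entered through day 6 only. For the rising contigs the median was 5.03 and 5.06 FPKM in the control, 5.37 and 5.43 FPKM on day 0, 1.62 and 1.45 FPKM on day 3 and then 6.03 and 5.85 FPKM on day 6. On day 9 it was 6.44 and 6.08 FPKM and on day 12 5.85 and 5.78 FPKM, so it stayed near the day 6 level. The falling contigs had medians of 11.9 and 12.1 FPKM in the control, 14.4 and 13.1 FPKM on day 0, 14.6 and 13.8 FPKM on day 3 and then 7.04 and 6.97 FPKM on day 6. Their medians were 6.64 and 8.05 FPKM on day 9 and then 8.38 and 8.46 FPKM on day 12, all below the control and day 0 libraries. With calls made from the 4 libraries of days 3 and 6 alone, 5430 rising and 2563 falling, the medians were 5.24 and 5.21 FPKM in the control for the rising contigs and 12.6 FPKM in each control library for the falling ones. These calls rest on the same day 3 and day 6 values, so the same limit holds for them. Contigs that were not called ranged in their medians from 3.11 to 4.46 FPKM over the 12 libraries.

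**Figure D4:**
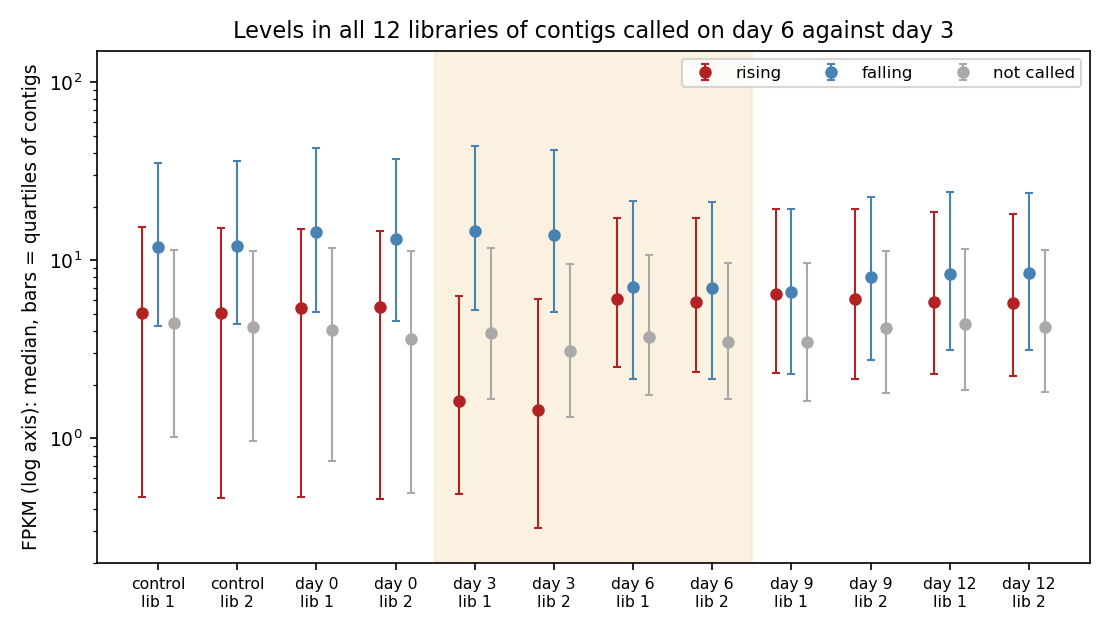
Median FPKM (points, log axis) and quartiles over contigs (bars) in each of the 12 libraries for contigs called rising (red), falling (blue) or not called (grey) on day 6 against day 3; the shaded band marks days 3 and 6. The median of all rising contigs dips to 1.62 and 1.45 FPKM on day 3 alone. The median of the falling ones steps down on day 6 and stays below its control, day 0 and day 3 values. The 3311 rising contigs above all 4 control and day 0 libraries on day 9, which are not drawn apart here, have no such dip in their medians.

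Behind the median of the rising contigs stood contigs with different endpoints. On day 9, 3311 of the 6095 (54.3%) lay above all 4 control and day 0 libraries, 1589 (26.1%) below all of them and 1195 (19.6%) neither, against 40.5%, 33.2% and 26.3% of all tested contigs. Called from the 4 libraries of days 3 and 6 alone, where no day 9, control or day 0 library takes part, the shares were 53.1%, 24.9% and 22.0%. The medians below describe the sets; since the sets were split by day 9 against the control and day 0 libraries, their order in those libraries follows from the split. The 3311 had medians of 1.06 and 1.03 FPKM in the control, 1.54 and 1.15 FPKM on day 3, 7.56 and 7.25 FPKM on day 6 and then 8.17 and 8.21 FPKM on day 9. The 1589 had medians of 12.7 FPKM in each control library, 1.66 and 1.62 FPKM on day 3, 4.69 and 4.60 FPKM on day 6 and then 4.56 and 4.22 FPKM on day 9. The 1195 went from 5.97 and 5.83 FPKM in the control through 1.61 and 1.66 FPKM on day 3 to 5.92 and 5.79 FPKM on day 6 and then 6.28 and 5.90 FPKM on day 9. On day 3 the medians of the 3 sets lay between 1.15 and 1.66 FPKM.

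The falling contigs divided in the same way with other weights. On day 9, 1561 of the 2737 (57.0%) lay below all 4 control and day 0 libraries, 530 (19.4%) above all and 646 (23.6%) neither. Of all tested contigs it was 33.2%, 40.5% and 26.3%, so the share of neither was close to that of all. Called from the 4 libraries alone, the shares were 53.9%, 20.6% and 25.6%. Here too the order of the medians below in the control, day 0 and day 9 libraries follows from the split. The 1561 had medians of 19.0 and 19.7 FPKM in the control, 14.5 and 13.4 FPKM on day 3 and then 6.66 and 6.58 FPKM on day 6. The 530 had medians of 5.00 and 4.95 FPKM in the control, 19.5 and 19.8 FPKM on day 3, 11.6 and 11.4 FPKM on day 6 and then 12.7 and 14.9 FPKM on day 9. The 646 went from 6.34 and 6.06 FPKM in the control and then 11.9 and 11.7 FPKM on day 3 to 5.52 and 5.55 FPKM on day 6.

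The step from day 3 to day 6 was set against the step from day 9 to day 12, which is as long and shares no library with it. In the same fit 554 contigs rose (3.58%) and 410 fell (2.65%) from day 9 to day 12. The median size of the change, without its sign, was 0.67 on the log2 scale for the earlier step and 0.25 for the later one, and the earlier change was the larger in 11953 contigs (77.2%). The difference between the steps was called in 7159 contigs (46.2%), with the earlier step the higher in 4832 (31.2%) and the lower in 2327 (15%) (limma, adjusted p under 0.05). Contigs entered by their levels on days 3 and 6, which favours the earlier step. In a fit of the 10176 contigs measured on both of these days, the difference was called in 4946. The main fit called it in 7159 of 15488, so the counts rest on different numbers of contigs tested. Of the contigs rising to day 6, 237 rose further from day 9 to day 12 and 287 fell, which is 3.89% and 4.71%. Of the falling ones, 228 rose in that later step (8.33%) and 32 fell (1.17%), a share of late risers above the 3.58% of all tested contigs.

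Day 0 against the untreated control also shares no library with the comparison, though the day of the control is ambiguous. In that comparison 1250 contigs were higher (8.07%) and 1447 lower (9.34%) on day 0. Of the contigs rising to day 6, 473 (7.76%) were higher and 667 (10.9%) lower on day 0 than in the control, close to these shares. Of the falling ones, 373 (13.6%) were higher and 143 (5.22%) lower. Across all tested contigs the Pearson correlation of the day 3 to day 6 change was -0.04 with the difference of day 0 from the control and -0.15 with the change from day 9 to day 12, given as a description.

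One feature of the contig names went with the direction of change. Each name ends in an appended number from 1 to 4, which the labels and the table do not explain. Of the tested contigs with the number 1, 457 of 3117 rose (14.7%) and 1104 fell (35.4%). With the number 2, 47.9% of 4271 rose and 14.7% fell; with the number 3, 45.5% of 4180 rose and 12.2% fell; and with the number 4, 43.1% of 3920 rose and 12.7% fell. The median change was -0.30 on the log2 scale for the number 1 and 0.55, 0.51 and 0.45 for the numbers 2, 3 and 4, against 0.32 for all tested contigs. These values include single-day contigs, which were spread unevenly. Through day 6 only entered 261 contigs of the number 1 and 1373, 1358 and 1262 of the others. Through day 3 only it was 504 against 140, 149 and 265. For contigs measured on both days the split was smaller. Their medians were -0.22, 0.20, 0.19 and 0.15 for the numbers 1 to 4, against 0.08 for all such contigs. In all 4 pairs of a day 6 and a day 3 library, over all tested contigs, the number 1 had a median below 0. It ranged from -0.37 to -0.23, and the median for each other number was above 0.

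The split by number was also counted under each scaling and by level. For the number 1, falling calls were the more frequent under every scaling, from 70.7% of its calls as deposited to 82.9% with quantile normalization. For the numbers 2, 3 and 4 rising calls stayed the more frequent under every scaling over all tested contigs, with exceptions in parts of them. At or above 10 FPKM the balance turned for all 3 numbers under the upper quartile, for the number 2 also under median ratios and for the number 3 also under quantile normalization. For contigs measured on both days their medians were below 0 under the upper quartile and quantile normalization. At or above 10 FPKM, 459 contigs of the number 1 fell and 219 rose, and below 10 FPKM 645 fell and 238 rose. Contigs with the number 1 held 30.0% and 29.3% of all FPKM on day 3 and 25.8% and 25.5% on day 6, and 26.9% and 27.1% in the control. Those with the number 4 held 27.0% and 26.9% on day 3, 29.1% and 29.3% on day 6 and 22.4% and 22.0% in the control. The day 12 against day 9 step showed no like split of its medians, which were 0.0040, 0.0260, -0.0745 and 0.0411 on the log2 scale for the numbers 1 to 4. Its calls did differ by number, with 57 rising and 71 falling, 231 and 122, 80 and 127, and 186 and 90 for the numbers 1 to 4. So did those of day 0 against the control, with 230 higher and 275 lower, 421 and 324, 390 and 333, and 209 and 515. Of the 45 contigs that fell at least 8-fold, 21 carried the number 1, as did 9 of the 235 that rose at least 8-fold. Among all 15488 tested contigs, 3117 carried it.

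**Figure D5:**
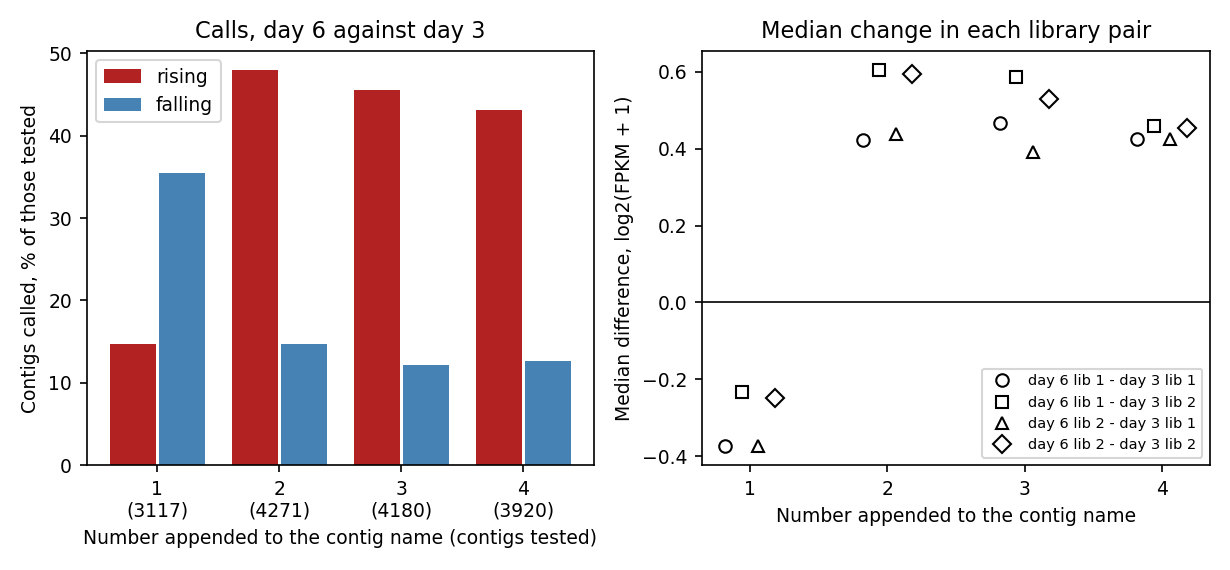
Left, share of tested contigs called rising (red) and falling (blue) on day 6 against day 3, by the number appended to the contig name; right, the median difference on log2(FPKM + 1) for each pair of a day 6 and a day 3 library. The number 1 stands apart, with 35.4% falling and medians of -0.37 to -0.23, while the other numbers have positive medians in every pair. Both panels include contigs that entered through 1 day only.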

How the data were processed

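Per the labels' protocols, libraries were made from total RNA of whole cells with an Illumina TruSeq RNA kit. The authors deposited a table of FPKM values, 1 column per library, for contigs with Trinity names; the aligner, counter, assembly settings and annotation were not stated in the labels or the file. Groups were read from library titles. Values were analysed as log2(FPKM + 1) with limma 3.58.1 in R 4.3.3 (group means of all 12 libraries, 6 residual degrees of freedom, eBayes with an intensity trend), with Benjamini-Hochberg adjustment over the 15488 contigs tested. With 2 libraries against 2, an exact permutation test cannot go below p = 0.333, so none was run. Descriptions used Python 3.11.15. The fit was tested on simulated data.

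Depth is unknown: ratios of low FPKM values between libraries (0.01 to 1 FPKM) peaked at 1.85 to 3.28 times the neighbouring values, and no fragment counts were recovered. No pair of libraries of a group shared an identical value above 0. Alternatives covered the pseudocount, the low-value filter, scaling, the libraries in the fit, eBayes options, a replicate block and leaving out each library. Contigs were named by a rule on the largest change, at most 2 per direction because the files pair no ID with a gene. The contrast, the contigs and the groupings were chosen with earlier results of these data known; the grouping by appended number and by level was made after values were seen.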

Additional observations from a re-analysis of the deposited data

Results flagged for a closer look

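Effects of 2 steps of equal length differed by a test of the difference itself, the step from day 3 to day 6 minus the step from day 9 to day 12. It was called in 7159 contigs (limma, adjusted p under 0.05), 4832 with the earlier step higher and 2327 lower. For the 4 named contigs a large difference follows from the way they were chosen, by the change from day 3 to day 6, which the difference contains, and their values are given as a description. The difference was 7.27 on the log2 scale for TRINITY_DN19425_c0_g1_i1_2, whose later step was -0.58. It was 6.70 for TRINITY_DN9629_c0_g1_i1_3, with a later step of -0.53. It was -6.81 for TRINITY_DN941_c0_g1_i2_1, which rose by 1.24 in the later step (limma adjusted p = 0.000571). It was -5.78 for TRINITY_DN449_c0_g1_i90_1, with a later step of 0.62.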

How the results depend on the processing

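The 4 named contigs kept their direction and stayed past the threshold under every alternative that included them; TRINITY_DN9629_c0_g1_i1_3 does not pass the filter on both days. The total of calls, 8832 of 15488 contigs tested, moved by over 1.5 times with the stricter filters and under no other alternative. The stricter filters also test fewer contigs, so their counts are not shares. At least 5 FPKM in both libraries of a day left 7918 contigs tested and gave 5336 calls, 3264 of them rising. Of the calls 2664 were at least 2-fold, 1919 of these rising. The difference between steps was called in 4700, and the median change was 0.17 on the log2 scale. At least 1 FPKM in both libraries of both days, an alternative chosen after seeing the data, left 10176 contigs tested. It gave 5565 calls, 3289 rising, 2309 of at least 2-fold, 1568 of these rising, and a median of 0.080. Contigs falling at least 2-fold, 1042, were 1603 with the upper quartile, 1675 with quantile normalization and 974 to 2385 with a library left out, the highest without day 3 library 2; those rising at least 2-fold, 3625, were 3369 to 4257. The share of falling calls, 31.0%, was 43.2% with the upper quartile and 46.1% with quantile normalization, and 26.1% to 42.7% with a library left out. The median change, 0.32, was 0.43 with a pseudocount of 0.1, 0.20 without a filter, 0.23 and 0.19 with a minimum mean over 12 or 4 libraries, 0.23, 0.13 and 0.074 with the rescalings, 0.23 without contigs unmeasured in the control and on day 0 and 0.040 to 0.44 with a library left out; the cause was not tested. With a library left out, calls ranged from 7329 to 9410, rising ones from 5237 to 6280, falling ones from 2004 to 4022, those of at least 2-fold from 4576 to 5754 and those for the difference between steps from 5917 to 8448; a lone library is assumed to vary like the other groups. The 4 libraries fitted alone gave 7993 calls. With the replicate number as a block there were 8648 calls, 6000 rising and 2648 falling. The library differences of days 3 and 6 had a correlation of 0.44 across contigs, but the labels do not say what a number marks, so the pairing rests on a number alone. A limit of 0.1 FPKM in place of 0.01 on day 3 raised the contigs switched on from 208 to 317. Depth in reads is unknown, so no counting error can be given for low contigs.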

Other observations

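Contigs that share a Trinity gene name but carry different appended numbers had nearly uncorrelated changes. The labels do not say whether a shared name marks the same gene across numbers. Over 3058 such pairs, from 5026 tested contigs, the correlation of the day 3 to day 6 change was 0.01, and 0.03 after the median of each number was taken off. Over 2308 pairs of contigs from the same Trinity cluster with the same number, in clusters of at most 5 tested contigs, the correlation was 0.17, and 0.11 after the median of each number was taken off. Where both contigs of a pair were called, 57.7% of 1060 pairs with different numbers had the same direction. For pairs with the same number it was 61.8% of 670. Rising calls outnumber falling ones, which can raise such shares by itself. These values are descriptions across pairs that can share a contig, and so are not independent. The pairs with different numbers and those with the same number were also chosen by different rules, so their values are no like comparison.

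The difference between the day 3 libraries, library 1 minus library 2, had a Pearson correlation of 0.34 across the tested contigs with the difference between days 6 and 0, in which no day 3 library takes part. With the library difference of day 9 it was 0.22, of the control -0.15 and of day 12 -0.0031.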
